A study of Homo sapiens with 12 samples.

Results

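The genes described are 10 feedback and output genes of the ERK pathway, namely DUSP4, DUSP5, DUSP6, SPRY2, SPRY4, SPRED1, SPRED2, ETV4, ETV5 and PHLDA1. They were chosen by name as genes whose RNA follows receptor kinase signalling, with earlier results of these data known. They are 10 of the 34595 gene rows with a value. RNA levels were read in 3 established gastric cancer cell lines, KATO-III, SNU-216 and SNU-601, each split by a flow cytometry sort into a CD133+ and a CD133- fraction. CD133, encoded by PROM1, is a membrane glycoprotein used to mark stem-like tumour cells, and the brightest and the dimmest cells for a CD133/1 (AC133) antibody were collected. Each of the 6 sorted populations was hybridised on 2 Illumina HT-12 v3 arrays, which gives 12 arrays. All cells had been grown in RPMI1640 medium with calf serum, no drug or growth factor was added as a condition, and each line is a single established line. The array labels name SNU-216 where the design text of the series names SNU201, and the labels were followed. No source states whether both arrays of a population came from separate sorts. The p-values within and between lines thus measure only the spread between these arrays, which may be technical. Those of the fit over all 3 lines also take in how far the change differs between lines, with arrays counted as replicates.

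In the ERK pathway, a growth factor binds a receptor tyrosine kinase, adaptors load RAS with GTP, and RAS drives the kinases RAF, MEK and ERK in turn. Active ERK switches on genes whose products act back on the pathway. DUSP proteins remove phosphate from ERK, Sprouty and SPRED proteins act on RAS and RAF activation, and ETV4 and ETV5 are transcription factors that carry the signal onward. The RNA of such genes is widely used as a readout of pathway output in tumour cells. The arrays measured RNA only, so neither ERK phosphorylation nor protein was read.

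The values are background-subtracted intensities. Any value below 32.7, which equals in size the lowest percentile of the table, was raised to that floor before log2 was taken. All 10 genes passed the filter of at least 2 arrays above the floor, which left 20147 genes for the tests, and 8 of the 10 lay above the floor on all 12 arrays. SPRY4 was under it on the 4 arrays of SNU-216 and ETV4 on 3 of them. With 2 arrays per population, precision is limited. PROM1 was higher in CD133+ cells by 1.10 (KATO-III), 2.02 (SNU-216) and 1.86 (SNU-601) on the log2 scale, while its intensity in CD133- cells still lay between 1315 and 4493. The summed intensity of 6 epithelial marker rows lay between 54947 and 65089 on every array. CDH1, the E-cadherin gene and 1 of these 6, was lower in CD133+ cells of KATO-III (4129 and 4314 against 6573 and 7142, -0.70 on the log2 scale, adjusted p = 6.8e-05). Of 10 fibroblast, leukocyte and endothelial markers, PTPRC and PECAM1 were under the floor on all arrays and 3 were above it on enough arrays to be tested, with summed intensities between 6.42 and 184 in SNU-216 and SNU-601. In KATO-III that sum was 936 to 962 in CD133+ and 1989.9 to 2062 in CD133- cells, through CD14 and LUM, a monocyte and a fibroblast gene. Of the 3 tested markers, 2 were lower and 1 was higher in CD133+ cells of KATO-III, with log2 changes between -3.31 and 0.84. In SNU-216, 1 was higher (0.90). Of all tested genes, 39.3% were called in KATO-III and 28.6% in SNU-216. Of 10 proliferation markers, 7 (KATO-III), 3 (SNU-216) and 6 (SNU-601) were higher in CD133+ cells, and their summed intensity on an array was 51068 to 51209.9 in CD133+ against 37609 to 39029 in the CD133- fraction of KATO-III, 58770.4 to 62474 against 54059.6 to 54131 in SNU-216, and 44174 to 45039 against 35287 to 35937 in SNU-601. In the same lines, 18.7%, 14.6% and 8.59% of all tested genes were called higher in CD133+ cells. The part of the proliferation markers in the results below was not tested. In bulk RNA of a sorted population, fewer cells that express a gene and less RNA per cell cannot be told apart.

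DUSP6 was higher in CD133+ than in CD133- cells of each line. How many of all tested genes share that pattern was not counted, so it is not read as particular to DUSP6. In KATO-III, 4 genes rose in CD133+ cells (DUSP6, ETV4, SPRY2 and PHLDA1) and 3 fell (SPRY4, ETV5 and SPRED2) at a limma adjusted p of 0.05, where 39.3% of all tested genes were called, 18.7% higher and 20.6% lower. In SNU-216, 3 rose (ETV5, SPRED1 and DUSP6) and 2 fell (DUSP4 and PHLDA1), against 28.6% of all tested genes, 14.6% higher and 14.0% lower. In SNU-601, 3 rose (DUSP4, DUSP6 and PHLDA1), against 16.4% of all tested genes, 8.59% higher and 7.78% lower. There limma called 0 of the 10 lower, with 2 lower at an unadjusted p under 0.05. The median log2 change of the 10 genes was 0.21 in KATO-III, 0.18 in SNU-216 over the 8 genes measured there, and -0.03 in SNU-601, beside medians of -0.02, -0.01 and -0.01 over all measured genes. The change differed from line to line for 7 of the 10 genes (interaction of line and fraction by limma's F-test), against 44.4% of all tested genes. These shares include many dim genes. Among the 13371 genes with a mean log2 at least 1 above the floor, the interaction was called for 62.0%. Of the same brighter genes, 53.2% were called between the fractions in KATO-III, 42.5% in SNU-216 and 26.1% in SNU-601.

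**Figure D1:**
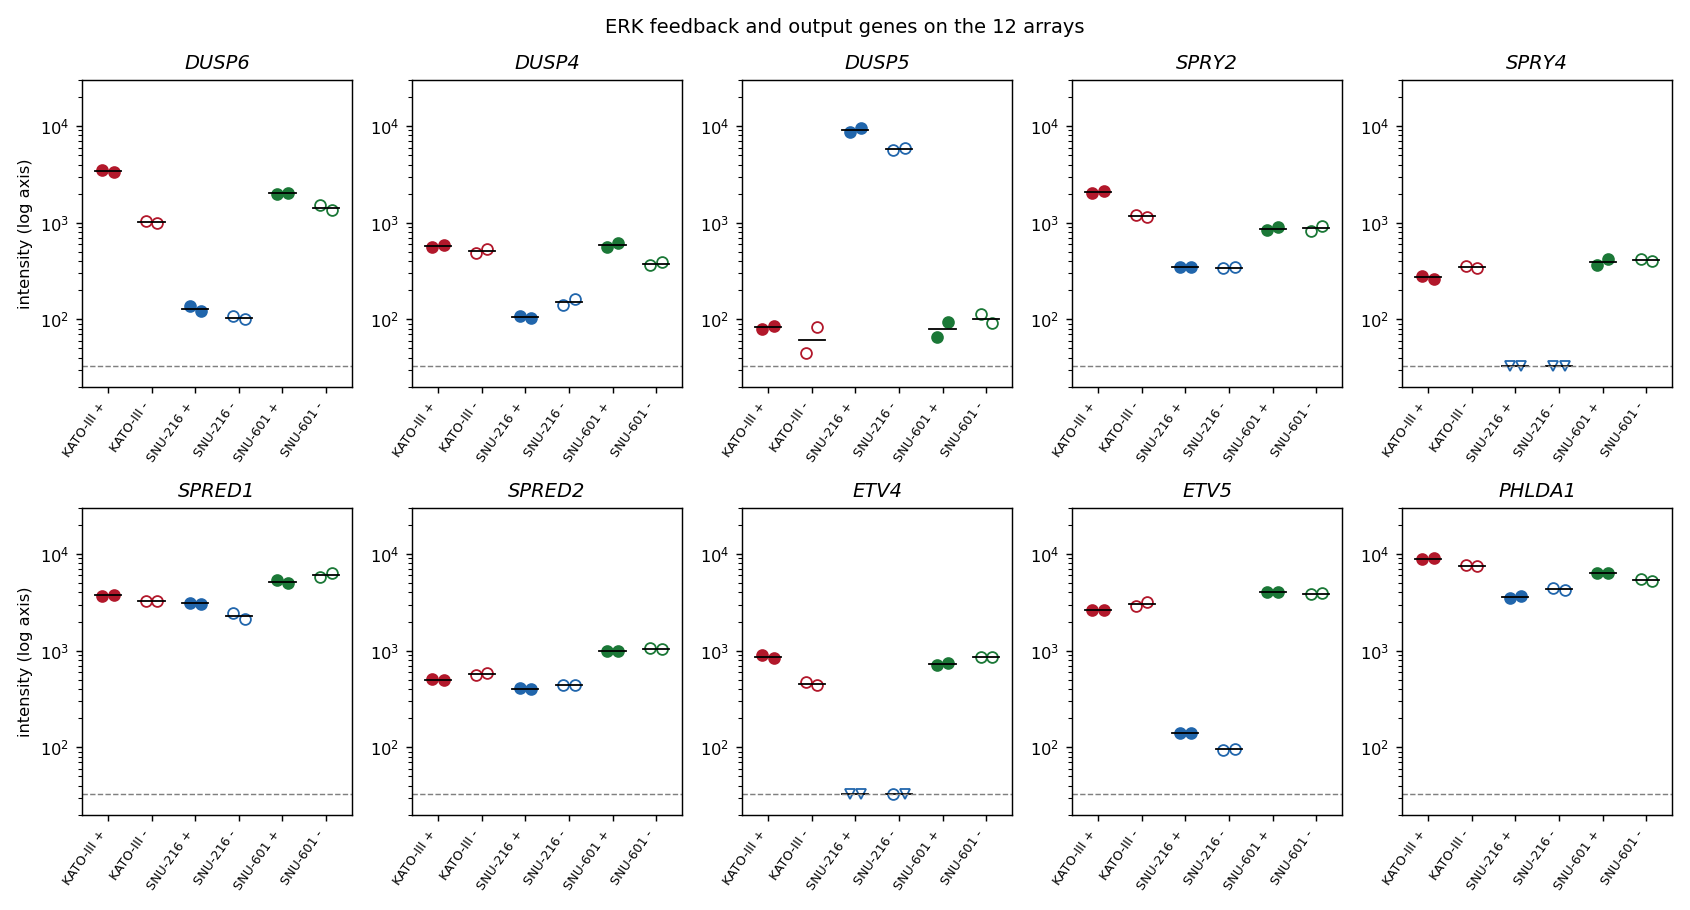
Intensity (log axis) of the 10 genes on the 12 arrays, with a panel for each gene, the 6 populations along the x axis, filled points for CD133+ and open points for CD133- cells, a bar at the mean of the log2 values, and the floor of 32.7 as a dashed line. Triangles are arrays under the floor. DUSP6, SPRY4, ETV4 and ETV5 sat lowest in SNU-216 while DUSP5 reached 5713 to 9595 there, against 45.2 to 114 in the other lines.

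DUSP6 encodes a cytoplasmic phosphatase that acts on ERK and is itself switched on by ERK signalling through ETS factors. The 250 bases before the annotated RefSeq starts of DUSP6, SPRY2 and SPRY4 (GRCh38.p14) are shown because DUSP6 was called in every line and the Sprouty genes SPRY2 and SPRY4 moved in opposite directions in KATO-III, with ETS core letters CGGAA or AGGAA, or their reverse complements TTCCG and TTCCT, in capitals. DUSP6 lies on chromosome 12 (chr12:89352502-89352751, minus strand), SPRY2 on chromosome 13 (chr13:80341127-80341376, minus strand, the first of its 3 listed starts) and SPRY4 on chromosome 5 (chr5:142324248-142324497, minus strand).
DUSP6: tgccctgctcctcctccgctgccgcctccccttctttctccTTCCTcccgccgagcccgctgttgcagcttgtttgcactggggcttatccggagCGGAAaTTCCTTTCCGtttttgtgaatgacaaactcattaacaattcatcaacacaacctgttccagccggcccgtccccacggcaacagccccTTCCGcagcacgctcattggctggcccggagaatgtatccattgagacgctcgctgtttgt
SPRY2: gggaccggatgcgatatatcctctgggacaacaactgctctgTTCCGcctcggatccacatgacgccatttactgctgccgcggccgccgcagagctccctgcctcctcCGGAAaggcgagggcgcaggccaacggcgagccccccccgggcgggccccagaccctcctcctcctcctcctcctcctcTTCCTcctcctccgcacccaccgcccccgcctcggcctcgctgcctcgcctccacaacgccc
SPRY4: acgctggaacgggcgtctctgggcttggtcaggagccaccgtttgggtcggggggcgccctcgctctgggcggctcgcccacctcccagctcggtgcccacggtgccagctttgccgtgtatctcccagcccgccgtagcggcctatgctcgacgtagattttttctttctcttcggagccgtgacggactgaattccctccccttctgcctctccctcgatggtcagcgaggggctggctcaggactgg
The DUSP6 stretch holds 3 matches to CGGAA and 2 to AGGAA, counted on both strands, the SPRY2 stretch 2 and 1, and the SPRY4 stretch none, and no 2 matches overlap. The stretches before starts 2 and 3 of SPRY2, not shown, hold no CGGAA, and 1 and 2 matches to AGGAA. The count for SPRY2 thus depends on the start chosen. Of the genes not shown, SPRED1 has 2 matches to AGGAA, SPRED2 has 3 and 2 before its starts 1 and 2, and none of these holds CGGAA. PHLDA1 has 2 matches to CGGAA and none to AGGAA. Whether the matches bear on the changes was not tested. Among 35116 such stretches, 30.3% hold CGGAA and 56.8% hold AGGAA, so these short letters are common and a match is no proven site. Starts were listed for 6 of the 10 genes, with 9 stretches in all, and none of the 9 holds the AP-1 letters TGANTCA (6.57% of all stretches) or the CRE letters TGACGTCA (1.65%).

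In KATO-III, the intensity of DUSP6 was 3535 and 3343 on the CD133+ arrays and 1034 and 982 on the CD133- arrays. In SNU-216 it was 137 and 122 against 107 and 100.1, and in SNU-601 1975 and 2045 against 1512 and 1359. The CD133+ arrays lay above the CD133- arrays in each line, with no overlap, and the gap was widest in KATO-III. Here and for the genes below, overlap is a description of 2 arrays against 2, and its share over all genes was not counted. The log2 change was 1.77 (95% CI 1.59 to 1.95, 3.41-fold, adjusted p = 1.2e-06) in KATO-III. It was 0.49 (0.31 to 0.67, adjusted p = 0.00415) in SNU-601 and 0.32 (0.14 to 0.50, adjusted p = 0.0148) in SNU-216. The change in KATO-III was larger than in SNU-216 by 1.45 (adjusted p = 3.3e-05) and larger than in SNU-601 by 1.28 (adjusted p = 7.1e-05) on the log2 scale, and those of SNU-216 and SNU-601 differed by -0.16 (95% CI -0.42 to 0.09, adjusted p = 0.341). The call in SNU-216 was lost without replicate 1 of the CD133+ arrays (adjusted p = 0.0933), without replicate 2 of the CD133- arrays (0.0869) and with an offset of 100 in place of the floor (0.0916). DUSP6 was ordered from KATO-III CD133+ through SNU-601 CD133+, SNU-601 CD133-, KATO-III CD133- and SNU-216 CD133+ to SNU-216 CD133- cells, and each neighbour in that order differed from the next.

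DUSP4 encodes a nuclear phosphatase of ERK and related kinases. Its intensity was 566 and 588 in CD133+ and 489.8 and 540.1 in the CD133- fraction of KATO-III, 109.7 and 104 against 139.6 and 163 in SNU-216, and 567 and 611 against 362 and 393 in SNU-601. The fractions did not overlap in any line, but CD133+ cells were the higher ones in KATO-III and SNU-601 and the lower ones in SNU-216. DUSP4 rose by 0.64 (standard error 0.101, adjusted p = 0.00354) in SNU-601 and fell by 0.50 (adjusted p = 0.00552) in SNU-216 on the log2 scale. In KATO-III the change was 0.16 (95% CI -0.06 to 0.39, adjusted p = 0.248). The changes of SNU-216 and SNU-601 differed by -1.14 on the log2 scale (adjusted p = 0.000527). From the highest population, SNU-601 CD133+ was followed by KATO-III CD133+ and KATO-III CD133-, which did not differ from their neighbours above, and then by SNU-601 CD133-, SNU-216 CD133- and SNU-216 CD133+, which did.

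DUSP5, a nuclear phosphatase specific for ERK, had the opposite order of lines. It was 8701 and 9595 in CD133+ and 5713 and 5964 in CD133- cells of SNU-216. In KATO-III it was 80.4 and 84.8 against 45.2 and 84.2, and in SNU-601 65.6 and 94.997 against 114 and 91.7. All 4 arrays of SNU-216 lay far above the other 8 arrays, and the fractions overlapped in KATO-III and SNU-601. The log2 change was 0.65 (95% CI 0.03 to 1.26, adjusted p = 0.116) in SNU-216, 0.42 (-0.20 to 1.04, adjusted p = 0.274) in KATO-III and -0.37 (-0.99 to 0.25, adjusted p = 0.443) in SNU-601, so no change was called. The CD133- replicate 1 array decided the value in KATO-III, which was -0.03 without it (adjusted p = 1) and 0.87 without replicate 2 (adjusted p = 0.0209). With a floor of 100, under which most of the dim arrays fall, the SNU-216 change was called (adjusted p = 0.000222), and with an offset of 100 likewise (0.000526). It was also called without KATO-III CD133- replicate 1 (0.0327) or 2 (0.0330). In these 4 settings the change of DUSP5 differed between the lines as well (adjusted p between 0.000692 and 0.0358), against 0.117 with all arrays and the floor of 32.7. Of the neighbours in the order, only SNU-216 CD133- and SNU-601 CD133- differed, by 5.84 on the log2 scale.

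SPRY2, a Sprouty protein induced by and acting against receptor kinase signalling, rose in CD133+ cells of KATO-III. Its intensity there was 2011 and 2115 against 1215 and 1152 in CD133- cells, a log2 change of 0.80 (95% CI 0.64 to 0.96, 1.74-fold, adjusted p = 3.4e-05). In SNU-216 it was 351 and 349 against 337 and 344, and in SNU-601 842 and 896 against 823 and 932. The fractions were apart in KATO-III and close in the other lines, where those of SNU-601 overlapped. The change was 0.04 (95% CI -0.12 to 0.20) in SNU-216 and -0.01 (-0.17 to 0.15) in SNU-601, and the change in KATO-III was larger by 0.76 and 0.81 on the log2 scale (adjusted p = 0.000474 and 0.000387). The order of levels was KATO-III, SNU-601 and SNU-216, with each line apart from the next, and the fractions of SNU-601 and of SNU-216 did not differ.

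SPRY4, a related Sprouty protein, was 283 and 263 in CD133+ and 353 and 339.8 in the CD133- cells of KATO-III, and 366 and 424 against 419.9 and 401 in SNU-601. In SNU-216 all 4 values lay between 0.367 and 17.3, under the floor, so no change between its fractions is given. The CD133+ arrays of KATO-III were the lower ones, and the fractions of SNU-601 overlapped. The log2 change was -0.34 in KATO-III (95% CI -0.59 to -0.10, adjusted p = 0.0323), opposite in sign to that of SPRY2, and -0.06 (-0.30 to 0.19) in SNU-601. The floored SNU-216 arrays add no spread to the estimate shared by all populations, so these intervals may be too narrow. The call in KATO-III was lost without any of 3 of its 4 arrays (CD133+ replicate 2, adjusted p = 0.110; CD133- replicate 1, 0.116; CD133- replicate 2, 0.0718), with a floor of 16 (0.0786) and after a repeated quantile normalization (0.0598) or median centring (0.0548).

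SPRED1 and SPRED2 bring neurofibromin to the membrane and thereby hold back RAS. SPRED1 was 3709 and 3749 in CD133+ and 3291 and 3299 in the CD133- fraction of KATO-III, 3119 and 3047 against 2430.0 and 2133 in SNU-216, and 5384 and 4992 against 5839 and 6287 in SNU-601. No fractions overlapped, and CD133+ cells were the higher ones in KATO-III and SNU-216 and the lower ones in SNU-601. SPRED1 rose by 0.44 (95% CI 0.29 to 0.59, adjusted p = 0.00133) in SNU-216. The changes of SNU-216 and SNU-601 differed by 0.66 (adjusted p = 0.00102). The values of 0.18 in KATO-III (adjusted p = 0.0636) and -0.22 in SNU-601 (adjusted p = 0.0521) narrowly missed the threshold. That of SNU-601 was called with a floor or an offset of 100 (0.0364 and 0.0365), and that of KATO-III with median centring (0.0320). With a filter on a mean log2 at least 1 above the floor, both were called (0.0484 in KATO-III and 0.0360 in SNU-601). Without either CD133- array of SNU-216, both were called, with adjusted p of 0.0285 in KATO-III and 0.0265 in SNU-601. SPRED2 was 512 and 494 against 562 and 583 in KATO-III, 408 and 399.9 against 440.1 and 441 in SNU-216, and 992 and 986 against 1059 and 1031 in SNU-601. Its CD133+ arrays lay below the CD133- arrays in all 3 lines, a pattern whose share over all genes was not counted. The log2 changes were small, at -0.19 (adjusted p = 0.0178), -0.12 (0.109) and -0.08 (0.376) in the order of the lines, and did not differ between lines beyond the spread of the arrays (adjusted p = 0.478). The call in KATO-III was lost without its CD133- replicate 2 (0.0710), with an offset of 100 (0.0659) and with median centring (0.0547).

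**Figure D2:**
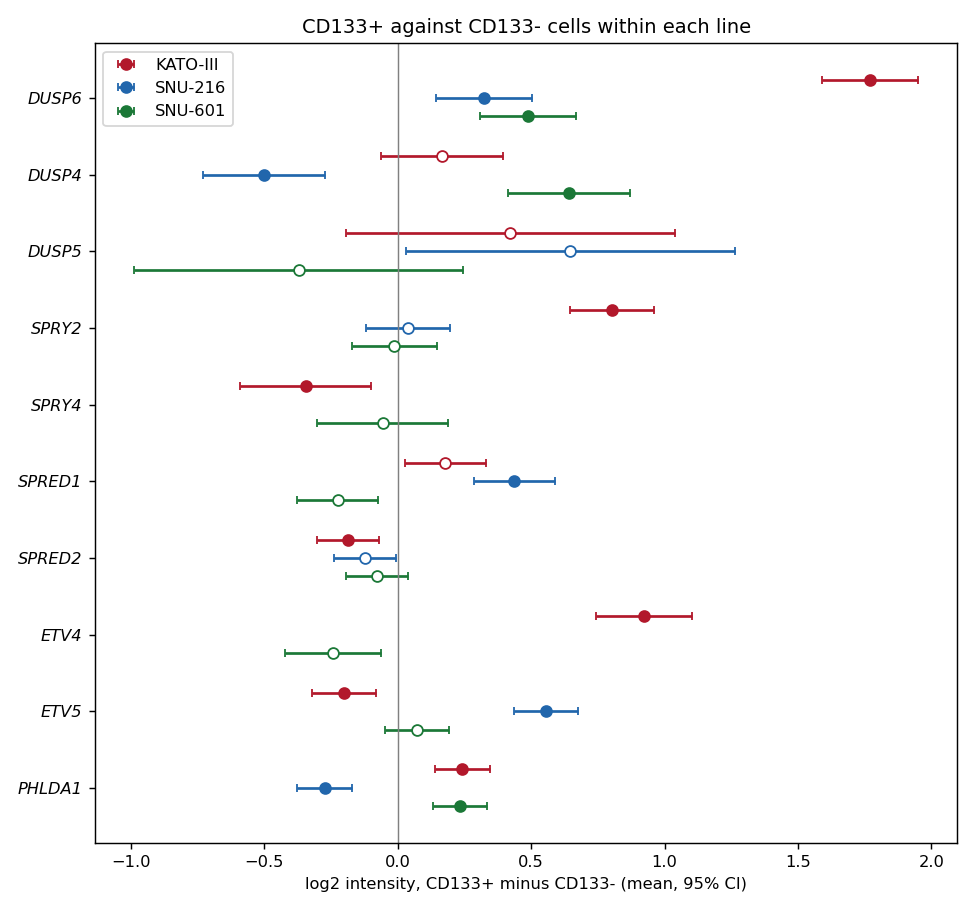
Log2 intensity of CD133+ minus CD133- cells (x axis) for each gene (y axis) in KATO-III (red), SNU-216 (blue) and SNU-601 (green), as the mean with its 95% CI from limma, filled where the adjusted p was under 0.05. SPRY4 and ETV4 have no point in SNU-216, where they lay at the floor. The change of 1.77 for DUSP6 in KATO-III lies farthest from 0, and only DUSP6, SPRY4 and SPRED2 have all their points on 1 side of 0.

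ETV4 and ETV5 are ETS transcription factors of the PEA3 group. ETV4 was 892 and 836 in CD133+ and 470.3 and 442 in the CD133- fraction of KATO-III, and 712 and 737 against 858 and 858 in SNU-601. In SNU-216 it was 21.9 and 31.5 against 32.8 and 9.90, with 1 of these arrays barely above the floor. CD133+ arrays were the higher ones in KATO-III and the lower ones in SNU-601, without overlap. The log2 change was 0.92 (95% CI 0.74 to 1.10, 1.89-fold, adjusted p = 3.2e-05) in KATO-III and -0.24 (-0.42 to -0.06, adjusted p = 0.0717) in SNU-601. These differed by 1.16 (adjusted p = 0.000117). The floored SNU-216 arrays add almost no spread to the estimate shared by all populations. The intervals and p-values of ETV4 may therefore be too small. The fall in SNU-601 was called with a floor of 100 (adjusted p = 0.0196), with no filter on dim genes (0.0180) and without the mean-variance trend (0.0372). The test of the interaction over all 3 lines gave an adjusted p of 0.000139, which was 0.116 with a floor of 16, under which the SNU-216 arrays were no longer set to the same value.

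ETV5 was 2634 and 2612 in CD133+ and 2869 and 3172 in the CD133- fraction of KATO-III, 140.2 and 140.2 against 94.2 and 96.4 in SNU-216, and 4066 and 4066 against 3824 and 3908 in SNU-601. CD133+ cells were the lower ones in KATO-III, unlike for ETV4, and the higher ones in the other lines. ETV5 rose by 0.56 (95% CI 0.44 to 0.68, 1.47-fold, adjusted p = 0.000110) in SNU-216 and fell by 0.20 (adjusted p = 0.0147) in KATO-III on the log2 scale. In SNU-601 the change was 0.07 (-0.05 to 0.19). The changes of KATO-III and SNU-216 differed by -0.76 (adjusted p = 0.000113). The call in KATO-III was lost without its CD133+ replicate 2 (adjusted p = 0.0513) or its CD133- replicate 2 (0.0746).

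PHLDA1 encodes a pleckstrin homology-like domain protein induced by growth factor signals. Its intensity was 8896 and 8988 in CD133+ and 7681 and 7440.0 in the CD133- fraction of KATO-III, 3523 and 3687 against 4483 and 4236 in SNU-216, and 6334 and 6322 against 5513 and 5258 in SNU-601. The fractions did not overlap in any line, and CD133+ cells were the lower ones in SNU-216 alone. The log2 change was 0.24 (adjusted p = 0.00255) in KATO-III, 0.23 (adjusted p = 0.00900) in SNU-601 and -0.27 (adjusted p = 0.00199) in SNU-216. Those of KATO-III and SNU-601 differed by 0.01 (95% CI -0.14 to 0.15), and that of SNU-216 differed from both (adjusted p = 0.000380 and 0.000545). The call in SNU-601 was lost without its CD133- replicate 2 (adjusted p = 0.0550). Each of the 6 populations differed from its neighbour in the order KATO-III CD133+, KATO-III CD133-, SNU-601 CD133+, SNU-601 CD133-, SNU-216 CD133- and SNU-216 CD133+.

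Over the 10 genes, 30 of the 50 steps between neighbouring populations passed the test at an adjusted p of 0.05, 18 did not, and 2 lay between populations of SNU-216 at the floor. These steps follow each gene's own order of levels, and some lie within a line. The shares below are for fixed pairs of populations from different lines, so they are no background for that count. The share of such steps over all genes was not counted. Of all tested genes, KATO-III CD133+ cells differed from SNU-216 CD133+ cells in 57.5%, from SNU-216 CD133- in 60.0%, from SNU-601 CD133+ in 55.2% and from SNU-601 CD133- in 56.8%. KATO-III CD133- cells differed from the same populations in 51.9%, 52.4%, 46.9% and 47.8% of genes. SNU-216 CD133+ cells differed from SNU-601 CD133+ and CD133- cells in 50.6% and 51.3%, and SNU-216 CD133- cells in 51.5% and 52.6%. For ETV4, KATO-III CD133+ and SNU-601 CD133- cells were the highest and did not differ (log2 gap 0.01). For ETV5, both fractions of SNU-601 were the highest, followed by KATO-III, with SNU-216 lower by 4.23 on the log2 scale than the population above it.

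SNU-216 stood apart from both other lines. In KATO-III, 9 of the 10 genes were higher than in SNU-216 and DUSP5 was lower, where 62.0% of all tested genes were called, 30.3% higher and 31.7% lower. In SNU-601, too, 9 were higher than in SNU-216 and DUSP5 was lower, where 56.5% of all tested genes were called, 27.1% higher in SNU-601 and 29.4% higher in SNU-216. These comparisons share the arrays of SNU-216. Of genes with a mean log2 at least 1 above the floor, 77.8% (KATO-III) and 75.4% (SNU-601) were called against SNU-216. The largest measured differences between KATO-III and SNU-216 were in DUSP5 (102-fold lower), ETV5 (24.3-fold higher) and DUSP6 (16.1-fold higher), and SPRED1 and SPRED2 differed least (1.32-fold and 1.27-fold). ETV4 and SPRY4 were at the floor in SNU-216, so KATO-III was at least 19.2-fold and at least 9.41-fold higher, and SNU-601 at least 24.1-fold and at least 12.3-fold higher. Between SNU-601 and SNU-216, ETV5 differed 34.3-fold, DUSP6 14.6-fold and DUSP5 81.3-fold, the last higher in SNU-216.

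**Figure D3:**
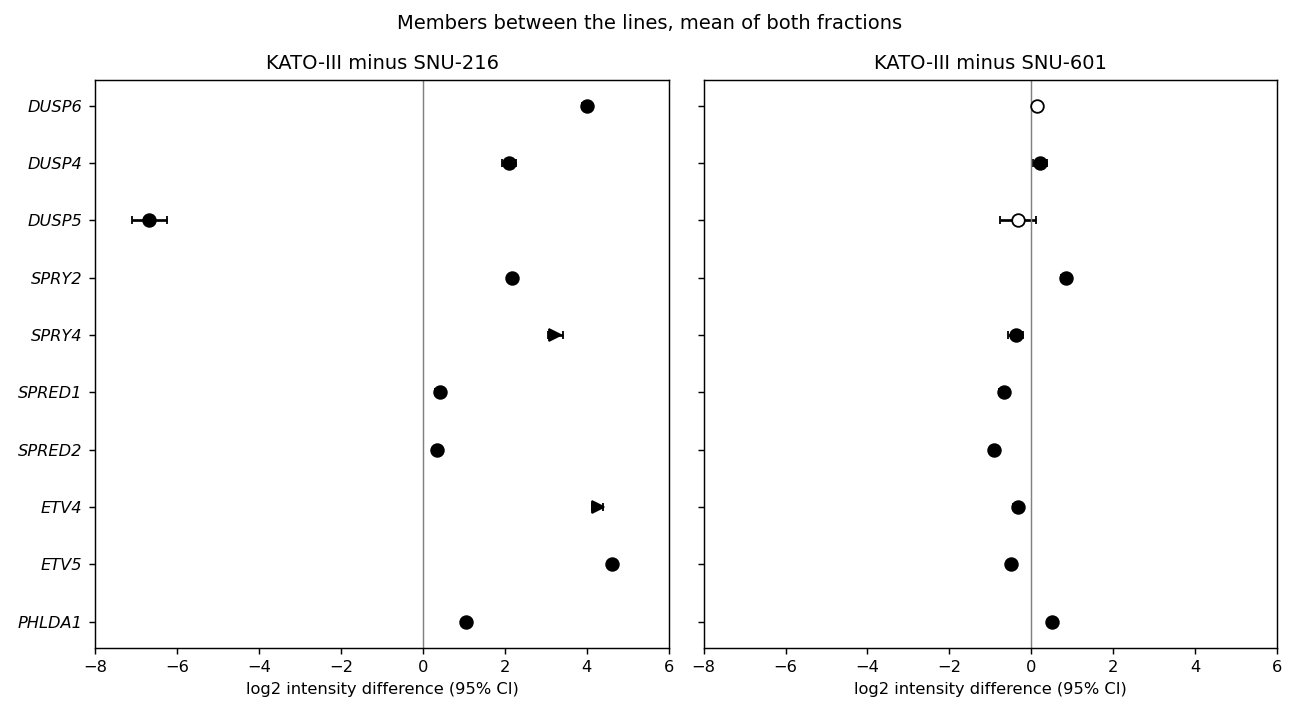
Difference of log2 intensity (x axis) between KATO-III and SNU-216 (left) and between KATO-III and SNU-601 (right) for each gene (y axis), over both fractions, with its 95% CI from limma. Filled symbols had an adjusted p under 0.05, and arrowheads mark SPRY4 and ETV4, which are lower bounds since SNU-216 was at the floor. On the left 9 genes lie above 0 and DUSP5 lies at -6.68, and on the right all lie between -0.92 and 0.84.

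KATO-III and SNU-601 were closer to each other in these genes. PHLDA1, SPRY2 and DUSP4 were higher in KATO-III, and SPRED1, SPRED2, ETV4, ETV5 and SPRY4 in SNU-601, where 58.6% of all tested genes were called, 28.7% higher and 29.9% lower in KATO-III. The differences lay between -0.92 (SPRED2) and 0.84 (SPRY2) on the log2 scale. DUSP5 (-0.33, adjusted p = 0.175) and DUSP6 (0.13, 95% CI 0.01 to 0.26, adjusted p = 0.0701) did not pass the threshold. For DUSP6 that mean hides an opposite order of the fractions, since KATO-III was higher than SNU-601 among CD133+ cells and lower among CD133- cells. DUSP6 was called with an offset of 100 (adjusted p = 0.0293), median centring (0.0350) or replicate number as a block (0.0344). It was also called without SNU-601 CD133- replicate 1 (0.0383) or SNU-216 CD133+ replicate 2 (0.049998). Without KATO-III CD133- replicate 2, DUSP5 was called (0.0114). The call for DUSP4 (0.21, adjusted p = 0.0317) was lost without KATO-III CD133+ replicate 1 (0.0545) or 2 (0.0833), KATO-III CD133- replicate 2 (0.102), SNU-601 CD133+ replicate 1 (0.0948) or SNU-601 CD133- replicate 1 (0.0948). With a floor of 16, ETV4 did not pass (adjusted p = 0.213).

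The receptors above these genes differed between the lines too. FGFR2, a receptor for fibroblast growth factors whose gene is known to be amplified in KATO-III, was 14641 and 14601 in CD133+ and 11326 and 12012 in the CD133- fraction of KATO-III, and under the floor on all 8 arrays of SNU-216 and SNU-601. KATO-III was therefore at least 399-fold higher than either, and CD133+ cells of KATO-III were higher by 0.33 on the log2 scale (adjusted p = 0.00863). FGFR4 and FGFR3, both named after their values were seen and therefore given without a test, are further receptors of that family. FGFR4 was 362 and 344 against 224 and 225 in KATO-III, 66.9 and 58.2 against 30.1 and 33.2 in SNU-216, and 306 and 298 against 248 and 265 in SNU-601. FGFR3 was 471 and 474 against 624 and 642 in KATO-III, 82.4 and 90.1 against 35.6 and 70.1 in SNU-216, and 1419 and 1352 against 1129 and 1129.7 in SNU-601. Both were lowest in SNU-216, while in KATO-III the CD133+ arrays were the higher ones for FGFR4 and the lower ones for FGFR3.

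ERBB2 and EGFR, receptors of the epidermal growth factor family, were highest in SNU-216. ERBB2 lay between 3713 and 4309 there, between 1134 and 1974 in KATO-III and between 1593 and 1905 in SNU-601. EGFR lay between 1040.0 and 1299 in SNU-216 and between 300.5 and 389.6 on the other 8 arrays. SNU-216 was 2.65-fold and 3.56-fold above KATO-III in these receptors, and the ranges did not overlap. In KATO-III, ERBB2 fell by 0.74 (adjusted p = 2.3e-05) and ERBB3, their partner with little kinase activity of its own, fell by 1.32 (from 1593 and 1472 to 563 and 665, adjusted p = 1.3e-05) in CD133+ cells on the log2 scale. MET, the receptor for hepatocyte growth factor, rose by 0.74 there (1905 and 1623 against 1139.5 and 977, adjusted p = 0.00432), and the lines did not differ in it at an adjusted p of 0.05 (KATO-III against SNU-216 0.03, 95% CI -0.22 to 0.27). AXL, a receptor tyrosine kinase also named after its values were seen and given without a test, was highest in SNU-216. It lay between 11537 and 12306 there, between 104 and 118 in KATO-III and between 2103 and 3249 in SNU-601. No ligand or receptor protein was measured, and whether these receptors bear on the 10 genes was not tested.

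**Figure D4:**
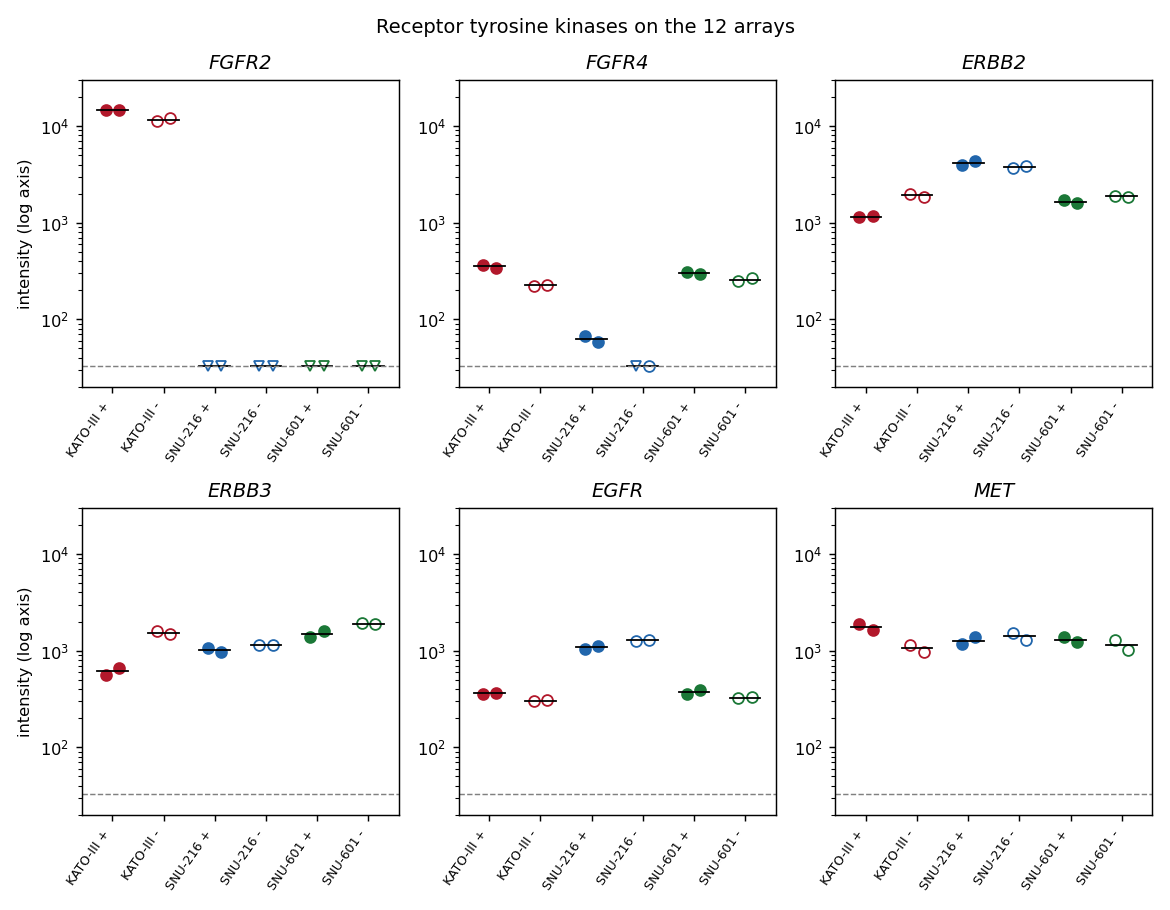
Intensity (log axis) of 6 receptor tyrosine kinases on the 12 arrays, drawn as in the plot of the feedback genes, with the floor of 32.7 as a dashed line and triangles for arrays under it. FGFR2 was above the floor only in KATO-III, and ERBB2 and EGFR were highest in SNU-216.

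The remaining pathway genes were taken from 6 lists of 102 genes in all, and their counts stand beside 39.3%, 28.6% and 16.4% of all tested genes called in KATO-III, SNU-216 and SNU-601. Of 9 tested ligand genes, 0 rose and 1 fell in CD133+ cells of KATO-III (limma, with 1 up and 1 down at an unadjusted p under 0.05), 1 rose in SNU-216, and 2 rose and 1 fell in SNU-601. FGF9, a fibroblast growth factor, rose by 1.20 in SNU-601 (207 and 215 against 98.8 and 85.5, adjusted p = 0.000286). Of 12 tested receptors, 5 rose and 3 fell in KATO-III, 2 rose and 1 fell in SNU-216, and 1 rose and 3 fell in SNU-601, where INSR, the insulin receptor, fell by 1.38 (adjusted p = 0.0104), a lower bound since 1 of its CD133+ arrays was under the floor. Of 15 adaptor and RAS genes, 6 rose and 4 fell in KATO-III and 3 rose and 3 fell in SNU-216. In SNU-601 limma called 0 of these 15, with 4 at an unadjusted p under 0.05. SOS1 and SOS2, which load RAS with GTP, fell by 1.01 (adjusted p = 0.00114) and 1.12 (adjusted p = 0.00426) in KATO-III.

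Of 14 tested genes of the kinase cascade, 6 rose and 5 fell in CD133+ cells of KATO-III, 2 rose and 6 fell in SNU-216, and 4 rose and 2 fell in SNU-601, where 39.3%, 28.6% and 16.4% of all tested genes were called. IQGAP1, a scaffold for the cascade, rose by 1.05 in KATO-III (adjusted p = 0.000597). Of 14 further phosphatases and inhibitors, 3 rose and 5 fell in KATO-III, 3 rose and 2 fell in SNU-216, and 2 rose and 3 fell in SNU-601. DUSP1, a phosphatase of stress kinases and ERK that also answers to stress, was 1232 and 1339 in CD133+ and 4263 and 4616 in the CD133- fraction of KATO-III. It fell by 1.79 (3.45-fold, adjusted p = 1.1e-06) there, a change as large as that of DUSP6 and in the other direction, and its changes of 0.11 in SNU-216 and 0.01 in SNU-601 did not pass the test.

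Of 20 further genes used as transcriptional readouts of MEK and ERK, 11 fell and 1 rose in CD133+ cells of KATO-III, 10 fell and 2 rose in SNU-216, and 1 fell and 2 rose in SNU-601. Over all tested genes, 20.6% were lower and 18.7% higher in KATO-III, 14.0% and 14.6% in SNU-216, and 7.78% and 8.59% in SNU-601, and the list was not tested as a set. Their median log2 change was -0.33 in KATO-III, -0.30 in SNU-216 and -0.00 in SNU-601. PLAUR, the urokinase receptor, was 144 and 154 against 404 and 421 in KATO-III and fell by 1.47 (adjusted p = 4.2e-07). IER3, an immediate early gene, was 2756 and 2443 against 6958 and 7174 in SNU-216 and fell by 1.44 (adjusted p = 3.8e-06). SPHK1, a sphingosine kinase, fell by 1.92 in SNU-216 (adjusted p = 1.7e-05), a lower bound since 1 CD133+ array was under the floor. EPHA4, an ephrin receptor, rose by 2.20 in SNU-216 (281 and 339 against 54.1 and 83.7, adjusted p = 0.000284).

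**Figure D5:**
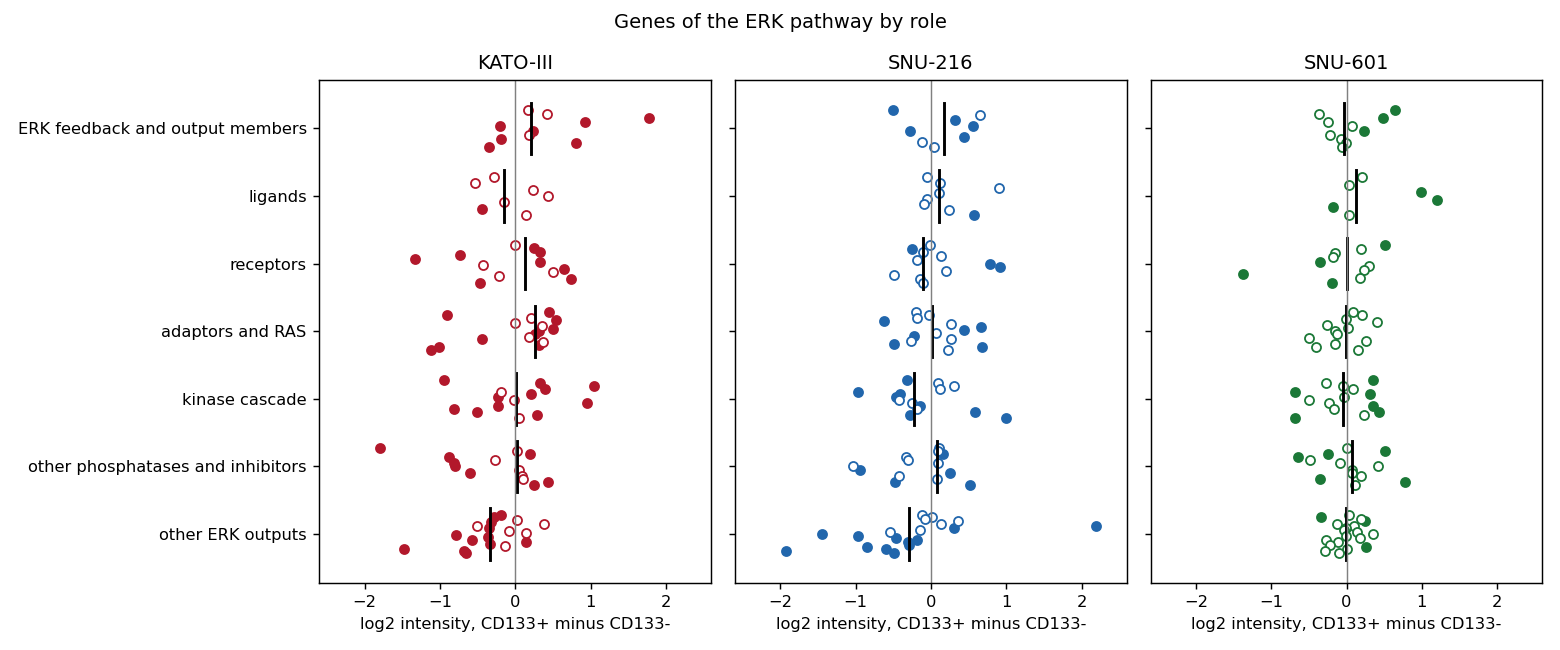
Log2 intensity of CD133+ minus CD133- cells (x axis) for the genes of each list (y axis) in KATO-III, SNU-216 and SNU-601, with a point for each gene, filled where its adjusted p was under 0.05, and a bar at the median. Genes with fewer than 2 of the 4 arrays of a line above the floor are left out. The further ERK outputs have medians of -0.33 and -0.30 in KATO-III and SNU-216, and the 10 members medians of 0.21 and 0.18.

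Over all 3 lines, with cell line as a block, DUSP6 was the only gene of the 10 that limma called between the fractions, where 4.73% of all tested genes were called, 2.62% higher and 2.11% lower. Its log2 change was 0.86 (95% CI 0.42 to 1.31, adjusted p = 0.0381), and it was higher in CD133+ cells in each line. The call was lost without any array of KATO-III, without SNU-216 CD133+ replicate 1, either SNU-216 CD133- array, SNU-601 CD133+ replicate 2 or SNU-601 CD133- replicate 2 (adjusted p between 0.0503 and 0.0989), with no filter on dim genes (0.118), when populations entered as random blocks (0.200) and when both arrays of a population were averaged beforehand (0.796). The other 9 changes lay between -0.13 (SPRY4 and SPRED2) and 0.28 (SPRY2). The signal-to-noise ratio (SNR), which is the difference of the means of the fractions divided by the sum of their SDs on linear intensities, lay between -0.10 (SPRED2) and 0.48 (DUSP6). None of the 10 passed 1 or -1, whereas 0.960% of all 34595 gene rows did (0.558% above 1 and 0.402% below -1), and for each of the 10 the 6 CD133+ arrays overlapped the 6 CD133- arrays. With each gene centred on its lines, the ratio was 0.89 for DUSP6 and -2.31 for SPRED2. How many of all genes pass 1 or -1 after this centring was not counted, so these values have no background.

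The pattern of DUSP6 was compared across the 6 population means with 11673 genes that lay above the floor on all arrays, as a description, since the points share 3 lines. The most similar genes were NOMO2, PEX7, ATP1B1, LOC730358 and C14ORF167, with Pearson's r between 0.994 and 0.997. Among the other genes of the 10 above the floor throughout, r was 0.95 for DUSP4 and ETV5, 0.94 for SPRY2, 0.87 for PHLDA1, 0.73 for SPRED1, 0.62 for SPRED2 and -0.95 for DUSP5. By this measure DUSP4 ranked 206th and ETV5 209th of the 11673 genes, so many other genes followed DUSP6 more closely.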

How the data were processed

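RNA of CD133+ and CD133- cells of KATO-III, SNU-216 and SNU-601 was hybridised to 12 Illumina HT-12 v3 arrays. The authors deposited linear intensities, quantile-normalized between arrays and background-subtracted (32.1% at or below 0, range -56.4 to 23393.5), with 34688 rows, a row per gene symbol, of which 34595 hold values. The submitters' processing notes name BeadStudio, and how probes were combined and any genome build are not given in the sources used here. Levels of different genes were therefore not compared.

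From the deposited intensities, values under 32.7 were set to that floor and log2 was taken. The 20147 genes that exceeded the floor on 2 or more arrays entered limma 3.58.1, run in R 4.3.3 (mean-variance trend, Benjamini-Hochberg over all tested genes, threshold 0.05). A mean for each of 6 populations (6 residual degrees of freedom) gave the contrasts within lines, between lines and between changes, and a fit with line as a block (8 residual degrees of freedom) gave the change over the lines. Changes are CD133+ minus CD133-, each over n = 2 arrays a population, and none is given where fewer than 2 of the 4 arrays of a line exceeded the floor. The script was tested on simulated data.

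Named were the 10 genes, PROM1, FGFR2, ERBB2, EGFR, MET, up to 2 genes per pathway list, line and direction called with a log2 change of at least 1, and the 5 genes most like DUSP6. FGFR3, FGFR4, AXL and the marker genes CDH1, CD14, LUM, PTPRC and PECAM1 are outside that rule and were named after their values were seen. The 10 genes and all lists were chosen with earlier results of these data known. Same-numbered replicates did not deviate together (r between -0.01 and 0.03), so numbers were not taken as pairs. Promoter sequences are RefSeq's (GRCh38.p14). Alternatives varied the floor, filter, normalization, trend, replicate handling, SNR scale and each array. Figures used Python 3.11.15 with matplotlib 3.10.9.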

Additional observations from a re-analysis of the deposited data

Results flagged for a closer look

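For 7 of the 10 genes the change between CD133+ and CD133- cells differed between the lines in the interaction test of limma (an F-test), against 44.4% of all tested genes. Among brighter genes, with a mean log2 at least 1 above the floor, that share was 62.0%. The adjusted p was 3.9e-05 for DUSP6 (1.77, 0.32 and 0.49 on the log2 scale in KATO-III, SNU-216 and SNU-601) and 0.000334 for SPRY2 (0.80, 0.04 and -0.01), where KATO-III had the larger change. It was 0.000708 for DUSP4 (0.16, -0.50 and 0.64), 0.00145 for SPRED1 (0.18, 0.44 and -0.22), 0.000195 for ETV5 (-0.20, 0.56 and 0.07) and 0.000337 for PHLDA1 (0.24, -0.27 and 0.23), where the sign changed between lines. For ETV4 it was 0.000139, with 0.92 in KATO-III and -0.24 in SNU-601, and SNU-216 at the floor. These values rest on 2 arrays per population.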

How the results depend on the processing

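The number of the 10 genes called over the lines was 1, and it was 0 with the replicate block, with populations as random blocks or with both arrays of a population averaged beforehand, and 0 to 1 with each array left out. At an unadjusted p under 0.05, DUSP6 alone passed in each of these 3 fits. With no filter on dim genes the count stayed at 1, but the gene was SPRED2 (adjusted p = 0.0304) in place of DUSP6 (0.118). Over all genes, that comparison called 953, against 425 with no filter, 471 with the replicate block, 1 with the random block, 0 with averaged arrays (992 at an unadjusted p under 0.05), and 217 to 532 with each array of KATO-III or SNU-216 left out. In SNU-601, 5 genes were called with a floor of 100 against 3. The share over all tested genes rose too, to 26.8% of 13929 with that floor from 16.4%. There, 3298 of all genes fell to 2176 without CD133+ replicate 1 and to 2195 without CD133- replicate 2. The SNR centred on each line put 1 gene past 1 or -1 against 0, with the share over all genes not counted. Signs turned for 3 changes, none of them called with all arrays: SPRY2 in SNU-601 became 0.021 with median centring, and with an array left out SPRY2 ranged from -0.10 to 0.078 and SPRY4 from -0.16 to 0.049 in SNU-601, and DUSP5 from -0.028 to 0.87 in KATO-III. The replicate block took the DUSP6 call over the lines (adjusted p = 0.0607) and added one for DUSP6 between KATO-III and SNU-601 (0.0344), and it changed no other call of the 10 genes. The causes were not tested. Limits are the 2 arrays per population, 1 value per gene symbol with probes unknown, and the floor, which makes SPRY4 and ETV4 in SNU-216 bounds.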
